A study of Danio rerio with 24 samples.

Results

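Among the zebrafish (*Danio rerio*) embryo libraries labelled 10 hours post-fertilisation (hpf), 11 held over 1000000 counts, out of 24 libraries in the series and 12 of that age. They were chosen by depth and sorted on the level of *nanog*, a transcription factor of the early embryo, as its count divided by the total and multiplied by 1000000 (CPM). Libraries below 30 CPM are called nanog-low and number 4 (CBD libraries 1 and 2, THC library 4 and DMSO library 1, written CBD1, CBD2, THC4 and DMSO1). Libraries at or above 30 CPM are called nanog-high and number 7 (CBD3, CBD4, THC1, THC2, THC3, DMSO2 and DMSO3). The nanog-low libraries lay between 10.5 and 11.3 CPM, and the nanog-high ones between 69.7 CPM (CBD4) and 211.6 CPM (THC3), so no library lay near the threshold. Because a measured value chose the sets, every difference between them is a description with no test, and *nanog* itself is left out of the results.

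All embryos carried Tg(fli1:egfp), a transgene that drives enhanced green fluorescent protein from a control region of the endothelial and blood gene *fli1*. Whole embryos were raised in cannabidiol (CBD, 4 deep libraries), tetrahydrocannabinol (THC, 4 deep libraries) or the solvent dimethyl sulfoxide (DMSO, 3 deep libraries), and the series asks how the cannabinoids change gene expression. Exposure ran through development in every group, and the sources used here give no doses, clutches or number of embryos pooled. The series calls its libraries biological replicates without saying that they came from separate clutches, and p-values here reflect the spread among libraries, which may be technical. The nanog-low set held 2 of 4 CBD, 1 of 4 THC and 1 of 3 DMSO libraries.

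As background, 10 hpf lies at the close of gastrulation in zebrafish, when the tail bud has formed and the first somites are about to appear. The embryo begins with messenger RNA laid down by the mother, and Nanog and Pou5f3 help to switch on its own genome as those maternal messages are cleared. Gastrulation then lays out mesoderm, endoderm and ectoderm. Segmentation follows, in which somites, the neural plate, the notochord, the hatching gland and the first blood and vessel precursors take on their own genes. Hox genes mark position along the body axis in the same period.

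The 11 libraries held 15307666 (CBD3) to 22674319 (THC4) counts. A count of 3, used as the floor of detection, came to 0.132 to 0.196 CPM of total counts (counting error only). The scaling given below raises this floor in CBD3 and lowers it in the others. CBD3 stood apart from the other nanog-high libraries: 20212 genes had a count there, against 23324 to 23894, and mitochondrially encoded genes took 2.78% of its counts, against 1.35% to 1.88%. Its trimmed mean of M values (TMM) scaling factor was 0.607, against 1.002 to 1.11 in the other 10 libraries. With counts divided by the total times this factor, its cytosolic ribosomal protein genes summed to 304041 CPM. On the same TMM scale the sum of these genes lay between 62282 and 75001 CPM in the nanog-low libraries. It lay between 41964 and 54289 CPM in the other nanog-high ones, and the part of this difference in the results was not tested. DMSO library 4 of 10 hpf, with 125926 counts, fell under the depth limit. From here on CPM values are TMM-scaled, and a log2 difference is the mean of log2(CPM + 0.5) over nanog-low libraries minus that over nanog-high libraries. The 0.5 CPM added makes differences of scarce genes smaller than they are. In whole embryos fewer cells of a type and less RNA per cell cannot be told apart.

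Both other marker genes stood higher in each nanog-low library. *MYOD1* (ENSDARG00000030110), which commits cells to muscle, stood at 30.3, 16.8, 8.93 and 6.38 CPM in CBD1, DMSO1, THC4 and CBD2, against 0.969, 1.57 and 2.597 CPM as the lowest, median and highest nanog-high level (log2 difference 2.71). *he1.1* (ENSDARG00000023656), a hatching enzyme that opens the egg envelope, stood at 154, 61.2, 16.7 and 10.4 CPM in the same 4 libraries, against 0.634, 1.41 and 3.34 CPM in the nanog-high set (4.2). For both genes the sets did not overlap, and within the nanog-low set CBD1 was highest and CBD2 lowest.

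Of 18185 genes with enough counts, 1111 stood higher and 529 lower in nanog-low libraries, counting a gene when the sets did not overlap and the log2 difference was at least 1. A gene present in 1 set alone passes the filter through that set, so counts over genes that passed only describe these libraries. These counts are 6.11% and 2.91% of all genes, and since the rule used this contrast, nothing is read from a list's share beside them. Without the fold limit the sets did not overlap for 11.1% of genes higher and 7.35% lower. The median log2 difference over all genes was 0.04. With libraries scaled by their total counts alone the counts were 1319 higher and 366 lower, so that 78.3% of counted genes stood higher, against 67.7% with TMM scaling. Choosing genes by sets that do not overlap fixes their direction within each treatment, so only sizes are given: the medians over the 1111 higher genes were 1.88 in CBD, 1.22 in THC and 1.75 in DMSO, and over the 529 lower genes −1.62, −1.35 and −1.21. A log2 difference of at least 1 in each of the 3 treatments was shown by 691 of the higher and 239 of the lower genes. Some treatments have 1 library on a side, so these within-treatment values have no spread of their own.

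**Figure D1:**
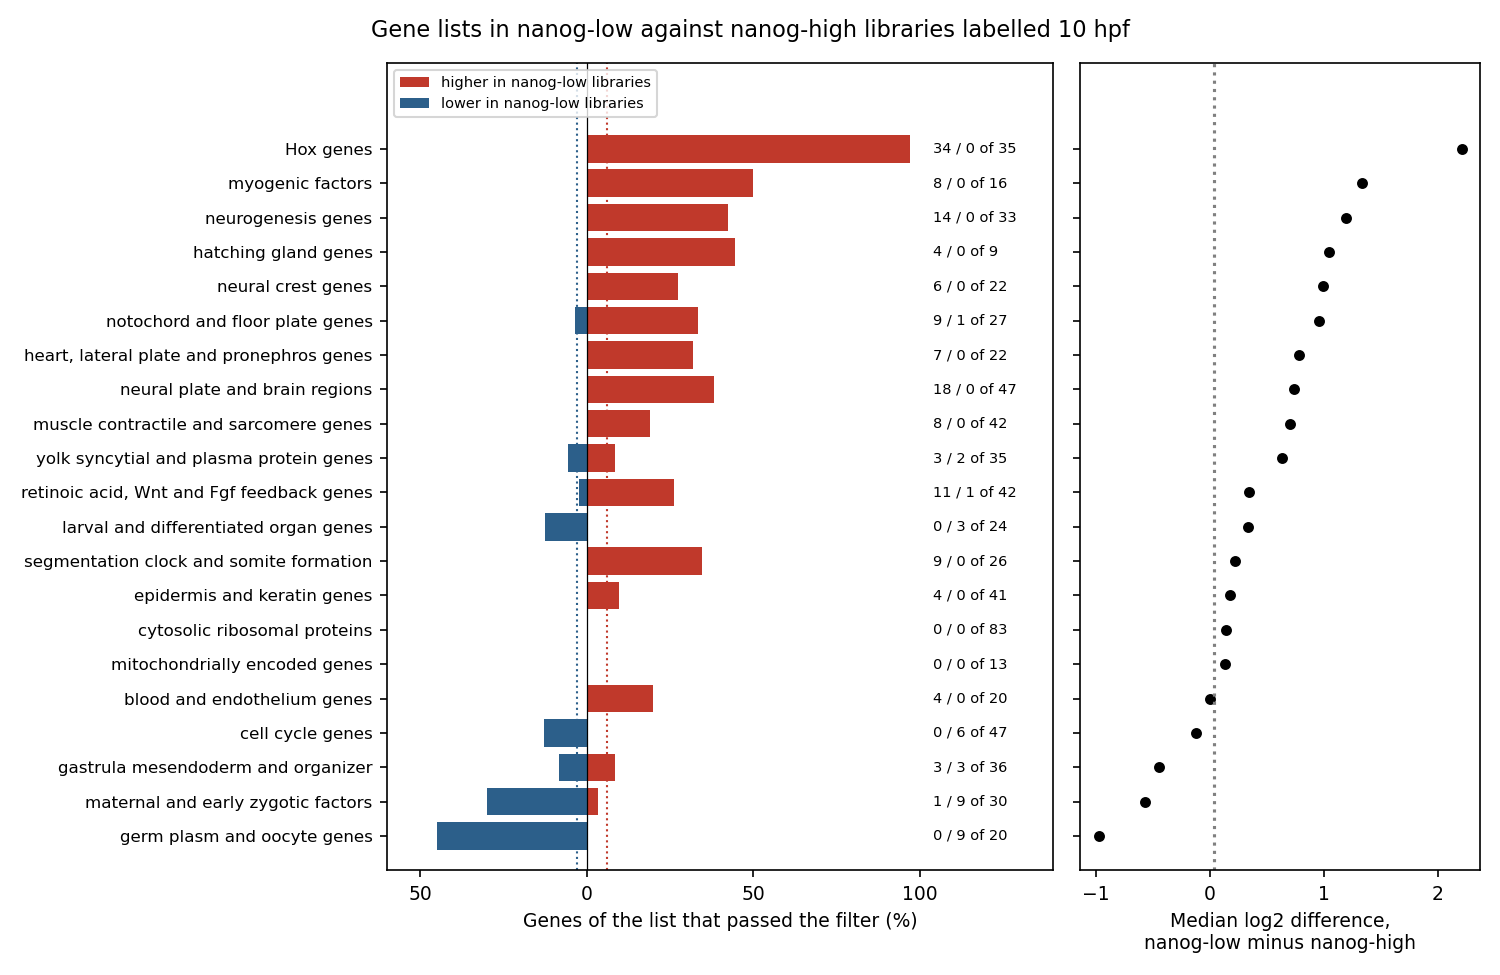
Left, the share of each gene list's members that passed the count filter and stood higher (red, to the right) or lower (blue, to the left) in nanog-low libraries, with counts as higher / lower of passed; dotted lines give the shares of all genes, 6.11% and 2.91%. Right, the median log2 difference of each list, with a dotted line at the median of all genes; Hox genes have the highest median (2.21) and germ plasm and oocyte genes the lowest (−0.98).

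Some maternal and germ plasm genes stood lower in nanog-low libraries, and most did not meet the rule for a counted gene. Of 20 germ plasm and oocyte genes that passed the filter (22 listed), 9 were lower and 0 higher, with a median log2 difference of −0.98. Of 30 maternal and early zygotic genes (32 listed), 9 were lower and 1 higher, with a median of −0.57. The cyclin gene *CCNA1*, a maternal cyclin of the early cleavage cycles, had the lowest log2 difference of all genes named here (−5.34). It stood at 8.55, 5.85, 1.15 and 1.38 CPM in CBD1, DMSO1, THC4 and CBD2, against 91.6, 150.2 and 250.1 CPM as the lowest, median and highest nanog-high level. The 2 sets lay far apart, and within the nanog-low set CBD1 and DMSO1 stood above THC4 and CBD2.

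The germ plasm organiser *buc* (Bucky ball) was scarce in every nanog-low library, at 0.698, 0.609, 0.699 and 0.479 CPM, against 13, 30.5 and 55.1 CPM in the nanog-high set (−4.8). Unlike *CCNA1*, it showed nearly the same level in all 4 nanog-low libraries. *TDRD6*, a Tudor protein of germ granules, stood at 2.27, 3.98, 3.04 and 3.14 CPM, against 6.16, 17.2 and 27.9 CPM (−2.1), and *PIWIL1*, which binds piRNAs in germ cells, at 3.97, 3.28, 1.32 and 1.06 CPM, against 4.44, 7.74 and 10.8 CPM (−1.6). The highest nanog-low level of *PIWIL1*, in CBD1, came close to the lowest nanog-high one. The egg coat gene *zp3b* differed by −1.39 and *gra* by −1.33, where *gra* had overlapping sets.

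Among early embryonic regulators, *pou5f3*, the partner of Nanog in genome activation, stood at 138, 238, 146 and 214 CPM in CBD1, DMSO1, THC4 and CBD2, against 409.9, 471 and 528 CPM in the nanog-high set (−1.41). Its sets did not overlap, and it was abundant in all 11 libraries. The maternal T-box factor *EOMES* (ENSDARG00000006640, a symbol shared by several copies) stood at 0.741, 0.937, 0.329 and 0.479 CPM, against 8.83, 12.8 and 28.1 CPM (−3.73). The zinc finger gene *cth1* stood at 3.27, 2.95, 2.14 and 3.298 CPM, against 13.1, 18.6 and 29.9 CPM (−2.58), and *nnr* at 13.7, 28, 13.8 and 18.8 CPM, against 66.4, 79.98 and 511 CPM (−2.49), where the highest level was that of CBD3 and the difference without CBD3 was −2.1. The 1 higher gene of the list was *BMP2* (ENSDARG00000013409), a copy of a Bmp ligand gene under a shared symbol. It stood at 6.15, 4.12, 2.59 and 1.17 CPM, against 0, 0.0478 and 0.378 CPM (2.61). Without CBD3 the lower genes numbered 8 of 20 germ plasm and 8 of 30 maternal genes.

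The 12 lowest differences among genes with a symbol, a median of at least 5 CPM in either set and no overlap held further oocyte genes. *lrmp*, which zebrafish need for the fusion of the egg and sperm nuclei, stood at 0.654, 0.983, 0.3702 and 0.372 CPM, against 15.6, 32.7 and 60.8 CPM (−4.94). The RNA-binding genes *LSM14B* and *CPEB1*, of which *CPEB1* controls the translation of stored messages in oocytes, stood at 0.851 to 2.18 and 0.828 to 1.36 CPM over the nanog-low libraries, against 19.97 to 62.5 and 10.99 to 40.7 CPM (−4.21 and −3.72). *WEE2*, an oocyte kinase that holds Cdk1 inactive, stood at 1.96, 2.34, 0.823 and 1.702 CPM, against 17.8, 21.5 and 37.8 CPM (−3.53). The others were the cyclin *ccnp* (−3.62), *lmo7b* (−3.93), *zgc:173742* (−3.59), *KANK1* (ENSDARG00000060584, −3.34) and the histone gene *h2af1al* (−3.62), which is given below with the differences inside the nanog-low set. That the sets do not overlap in these genes was a condition of choosing them.

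Cell cycle genes stood lower in part. Of 47 that passed (48 listed), 6 were lower and 0 higher, with a median log2 difference of −0.12, which changed sign to 0.04 with libraries scaled by total counts alone. *CCNB2*, a mitotic cyclin, stood at 45.8, 53.2, 53.1 and 70.95 CPM in CBD1, DMSO1, THC4 and CBD2, against 112, 142 and 309 CPM (−1.49), and *CCNE1*, a cyclin of S phase entry, at 40.7, 58.2, 61.1 and 71.6 CPM, against 107, 135 and 253 CPM (−1.32). Both were well above the floor in all 11 libraries. The replication helicase genes *mcm3l*, at 1.31, 1.45, 1.15 and 0.851 CPM against 7.58, 9.58 and 22.7 CPM (−2.78), and *MCM6* (ENSDARG00000033231, shared symbol), at 7.93, 9.32, 8.14 and 10.2 CPM against 34.3, 41.2 and 117 CPM (−2.32), differed by more. *WEE2* and *CCNA1* are the other 2 of the 6, and both also belong to the maternal pattern above.

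Gastrula mesendoderm and organizer genes mostly had negative differences, and few were counted. Of 36 that passed (40 listed), 3 were lower and 3 higher by the rule for a counted gene. The differences were negative for 27 and positive for 9, and the median was −0.44. *sox32*, which specifies endoderm, stood at 16.6, 34.9, 29.3 and 44.9 CPM, against 69.1, 87.6 and 234 CPM (−1.7). The organizer ligand *admp* stood at 16.96, 29.3, 32.5 and 50.5 CPM, against 63.5, 72.2 and 117 CPM (−1.32), and the Nodal ligand *ndr2* at 3.05, 7.45, 7.32 and 12.02 CPM, against 13.1, 15.4 and 17.7 CPM (−1.11). In all 3 CBD1 was the lowest and CBD2 the highest of the nanog-low libraries. The higher genes were *BMP2*, the Bmp and activin decoy receptor *BAMBI* (ENSDARG00000099677, 1.37) and *FGF3*, a signal of hindbrain and tail bud, which stood at 12.8, 13.7, 21.8 and 20.1 CPM, against 2.26, 3.97 and 7.74 CPM (1.91). Without CBD2, 8 of 36 members were lower, against 3 with it. Over all genes 634 of 18111 were lower without CBD2, against 529 of 18185 with it.

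**Figure D2:**
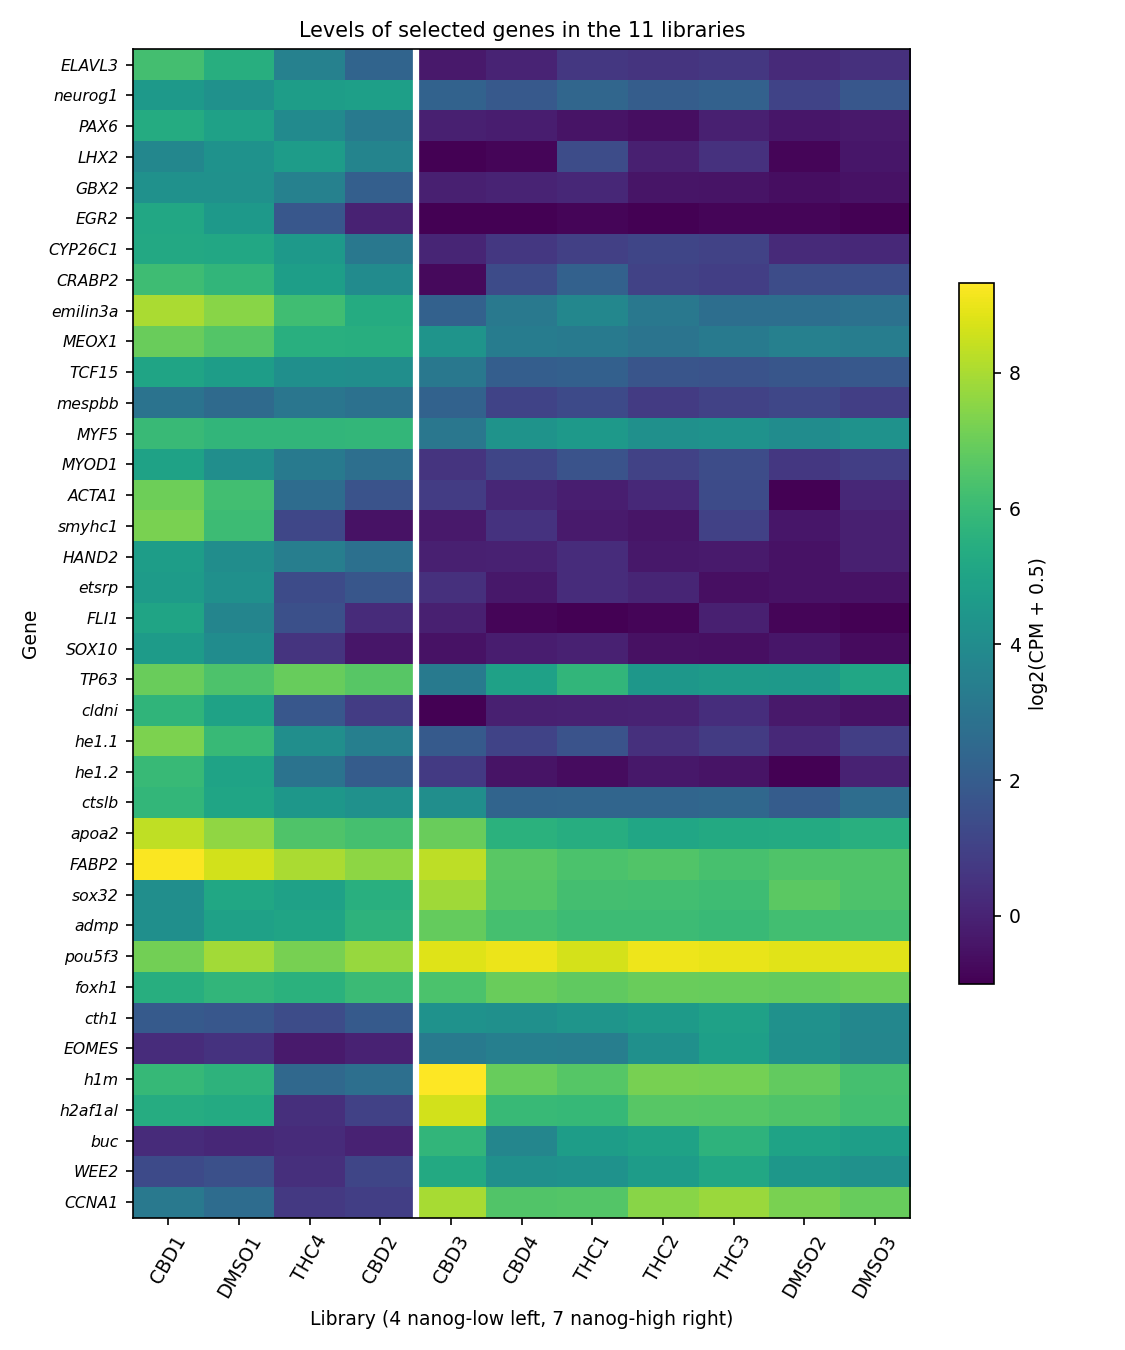
Levels of selected genes as log2(CPM + 0.5), 1 row per gene and 1 column per library, with the 4 nanog-low libraries left of the white line and the 7 nanog-high libraries right of it. The upper rows, of neural, somite, muscle, vessel and hatching gland genes, are brighter on the left, and the lower rows, of maternal and gastrula genes, are brighter on the right; CBD3 stands out among the nanog-high libraries for *h1m*, *h2af1al* and *FABP2*.

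Genes of somite formation stood higher in nanog-low libraries in 9 of 26 cases that passed (27 listed), and 0 stood lower, with a median log2 difference of 0.22. *MEOX1*, a homeobox gene of somites, stood at 123, 93.9, 45 and 43.4 CPM in CBD1, DMSO1, THC4 and CBD2, against 7.44, 9.699 and 19.7 CPM (2.68). *TCF15*, which makes somites epithelial, stood at 32.2, 26.2, 17.1 and 16.9 CPM, against 2.64, 3.09 and 8.18 CPM (2.45). CBD3 was the highest nanog-high library for both, and without it the differences were 2.83 and 2.64. *mespbb* and *mespba*, which set the front part of each new somite, differed by 1.63 and 1.66, with levels of 5.39 to 7.82 and 2.67 to 3.97 CPM over the nanog-low libraries, against 1.22 to 4.31 and 0 to 1.72 CPM. These 2 genes were nearly level across the 4 nanog-low libraries. *HES6* (ENSDARG00000007097) differed by 2.3 and the boundary ligand *EFNB2* (ENSDARG00000020164) by 1.45; both symbols are shared.

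Myogenic factors stood higher in 8 of 16 cases (20 listed, 0 lower), with a median of 1.33. *MYF5*, the earliest muscle determination factor, stood at 62.8, 55.9, 54.5 and 57.02 CPM, against 7.97, 18.5 and 22.8 CPM (1.76), with hardly any spread among the nanog-low libraries. The muscle regulators *EYA1* and *TCF12* stood at 31.4, 24.7, 11.2 and 7.13 and at 55.5, 45.8, 30.8 and 21.5 CPM in CBD1, DMSO1, THC4 and CBD2. Their nanog-high ranges were 1.89 to 3.57 and 3.23 to 14.3 CPM (2.39 and 2.02), and CBD1 and DMSO1 stood above THC4 and CBD2. *DMRT2*, which keeps left and right somites in step in zebrafish, stood at 30.6, 22.7, 5.72 and 3.298 CPM, against at most 0.287 CPM in the nanog-high set (4.28). Without CBD2, 12 of 16 myogenic factors were higher. Over all genes the count rose as well, to 1722 of 18111 without CBD2 from 1111 of 18185 with it.

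Contractile and sarcomere genes stood higher in 8 of 42 cases (57 listed, 0 lower; 15 did not pass the filter), with a median of 0.70. *hsp90aa1.1*, a chaperone of myosin folding in muscle, stood at 116, 73.7, 10.6 and 6.06 CPM in CBD1, DMSO1, THC4 and CBD2, against 0.196, 0.739 and 2.05 CPM (4.52). The skeletal actin *ACTA1* (ENSDARG00000036371, shared symbol) stood at 130, 72.8, 5.72 and 2.66 CPM, against 0, 0.596 and 2.04 CPM (4.17), and the myosin light chain *myl10* at 89.6, 48.6, 25.1 and 15.5 CPM, against 1.27, 1.84 and 3.45 CPM (3.95). In all 3 genes CBD1 and DMSO1 stood well above THC4 and CBD2, and all 4 exceeded every nanog-high library. *KLHL41* (ENSDARG00000006757), which steadies sarcomeres, differed by 3.02. The slow myosin *smyhc1* was high in only 2 of the nanog-low libraries: it stood at 151, 67.2, 1.77 and 0.213 CPM, against 0.245, 0.3305 and 1.49 CPM (3.5), so the sets overlapped. *TNNI2* (ENSDARG00000029995), a fast troponin, had the lowest difference of the list (−2.2) with overlapping sets, at 1.87, 3.04, 1.48 and 1.22 CPM against 2.08, 10.9 and 42 CPM. Without CBD2, 13 of 42 were higher, beside 1722 of 18111 over all genes.

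Genes that are abundant in larval fast muscle did not follow the sets. The parvalbumin *pvalb2*, a calcium buffer of fast muscle, stood at 3.53, 8.76, 15.8 and 0.904 CPM in CBD1, DMSO1, THC4 and CBD2. Among nanog-high libraries it stood at 6.57 CPM in CBD3, 1.72 in CBD4, 0.519, 0.832 and 22.8 in THC1, THC2 and THC3, and 0.3697 and 1.95 in DMSO2 and DMSO3. The highest levels were those of THC3 and THC4, 1 library of each set. The fast myosin *myhz1.1* had the same order at the top, with 21.7 CPM in THC3 and 14.9 CPM in THC4. At 96 hpf the median of *pvalb2* was 11276 CPM of total counts, of which THC3 held 0.215%. The cardiac and early skeletal actin *actc1b* showed both patterns at once, at 59.6, 44.3, 31.1 and 1.86 CPM in the nanog-low libraries and 44.8 CPM in THC3, against at most 14.6 CPM (CBD3) in the 6 other nanog-high libraries. *tpma*, a tropomyosin, likewise stood at 38.5, 27.9, 11.7 and 0.638 CPM in the nanog-low libraries and 16.8 CPM in THC3. Of the list of larval and differentiated organ genes, 24 of 56 passed the filter, with 0 higher and 3 lower and a median of 0.34. Their differences were positive for 14 and negative for 10. The lower genes were *COL10A1* (ENSDARG00000054753, −1.59), *MFAP4* (ENSDARG00000090557, −1.34) and *prss59.1* (−1.01). *GFAP* differed by 3.37 without being counted as higher. The list summed to 67.1 to 154 CPM in nanog-low and 86.5 to 204 CPM in nanog-high libraries, against a median of 48441 CPM of total counts at 96 hpf. The part of larval RNA in the muscle differences was not tested.

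**Figure D3:**
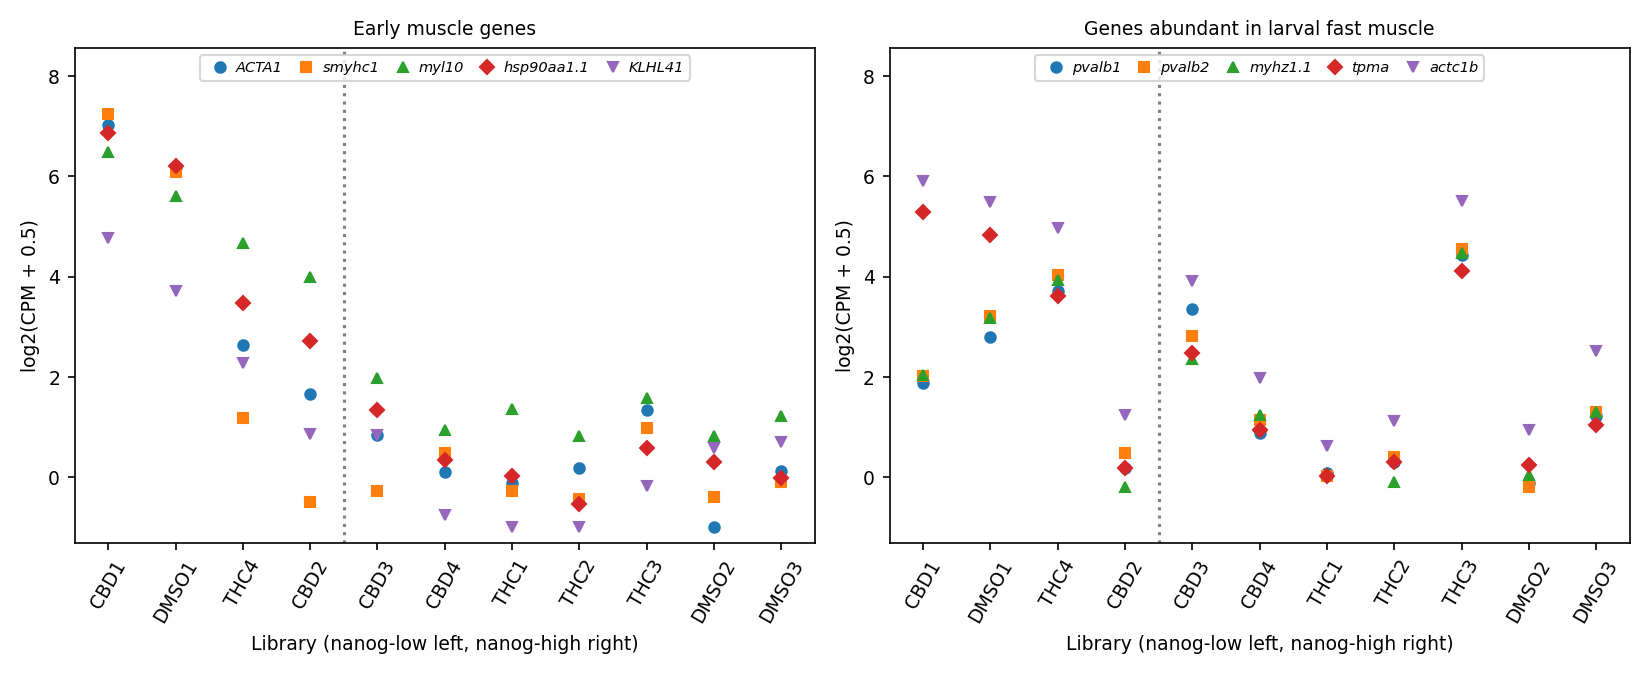
Levels of early muscle genes (left) and of genes abundant in larval fast muscle (right) in each library, as log2(CPM + 0.5), with the 4 nanog-low libraries left of the dotted line and the 7 nanog-high libraries right of it. The early genes are high in CBD1 and DMSO1 and, apart from *smyhc1*, intermediate in THC4 and CBD2, whereas the parvalbumins and *myhz1.1* are highest in THC3 and THC4.

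The hatching gland forms from the front-most mesoderm and fills with enzymes. Of its genes, 4 of 9 that passed (11 listed) stood higher and 0 lower, with a median of 1.05. Beside *he1.1*, the hatching enzyme *he1.2* stood at 62.1, 31.2, 7.03 and 3.56 CPM in CBD1, DMSO1, THC4 and CBD2, against 0, 0.239 and 1.18 CPM (4.28). The cathepsin *ctslb*, a marker of hatching gland precursors, stood at 56.5, 32.7, 21.8 and 18.1 CPM, against 3.54, 4.72 and 16.6 CPM (2.27), and CBD3 alone lay close to the nanog-low range; without it the difference was 2.53. *CD63*, a tetraspanin of secretory vesicles, differed by 1.05, *AGR2* by 1.17 with overlapping sets, and *XBP1* by −0.18. Without CBD3, 5 of 9 were higher.

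Epidermal and keratin genes stood higher in 4 of 41 cases (42 listed, 0 lower), with a median of 0.17. *TP63*, the master factor of epidermis, stood at 124, 85.3, 121 and 100.4 CPM, against 9.15, 24.3 and 55.5 CPM (2.06). The claudin *cldni*, a tight junction gene, stood at 52.8, 30.3, 3.003 and 1.28 CPM, against 0, 0.43 and 0.771 CPM (3.56), with CBD1 and DMSO1 far above the other 2. *foxi3a*, which specifies skin ionocytes in zebrafish, differed by 1.64 and *ANXA2* by 1.78. Their sets did not overlap, whereas those of *cldna* (1.77) and *icn2* (1.49) did. Without CBD3, 8 of 41 were higher. The epidermal genes of CBD3 summed to 36914 CPM with its scaling factor of 0.607, against at most 21814 CPM in the 6 other nanog-high libraries.

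Genes of the yolk syncytial layer and of plasma proteins stood higher in 3 of 35 cases and lower in 2 (40 listed), with a median of 0.63. Chosen after their values were seen, the 2 lower genes were *HNF4A*, a transcription factor of liver and yolk syncytial layer (−1.3), and *MTTP*, which loads lipid onto apolipoproteins (−1.14). The apolipoprotein *apobb.1*, which packs yolk lipid, stood at 1952, 1509, 665 and 406 CPM, against 137, 347 and 399 CPM (1.64), with CBD2 just above the highest nanog-high library. *apoa4b.1* stood at 72.6, 43.3, 18.1 and 11.8 CPM, against 4.24, 7.71 and 10.1 CPM (1.99), and the fibrinogen chain *FGG* at 8.02, 5.198, 2.47 and 2.39 CPM, against 0.245, 0.496 and 0.969 CPM (2.19). *apoa2* and *FABP2*, both lipid carriers, overlapped through CBD3, at 125 and 312 CPM there; without it their differences were 1.8 and 1.91, against 1.57 and 1.65 with it. Without CBD3, 8 of 35 were higher and 2 lower.

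Neural plate and brain region genes stood higher in 18 of 47 cases (55 listed, 0 lower), with a median of 0.74. *PAX6* (ENSDARG00000103379, shared symbol), a factor of eye, forebrain and spinal cord, had the highest difference of all genes named here (4.66), at 40.7, 29.5, 14.7 and 8.94 CPM in CBD1, DMSO1, THC4 and CBD2, against 0.147, 0.325 and 0.441 CPM. *LHX2*, an eye field and forebrain gene, stood at 13.2, 18.6, 26 and 12.2 CPM, against 0, 0.271 and 2.17 CPM (4.29). *PAX2* (ENSDARG00000028148, shared symbol), which marks the border of midbrain and hindbrain, stood at 48.5, 45.6, 73.7 and 54.3 CPM, against 1.68, 2.91 and 9.06 CPM (3.86). These 3 genes were ordered differently inside the nanog-low set: CBD1 was highest for *PAX6*, and THC4 for *LHX2* and *PAX2*.

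Further hindbrain and spinal genes were more uneven within the nanog-low set. *EGR2* (Krox20), which marks 2 hindbrain segments, stood at 36.5, 23.7, 2.96 and 0.479 CPM, against 0, 0 and 0.0551 CPM (3.83), and CBD2 held 9 counts. *IRX3* (ENSDARG00000031138) differed by 4.03 and *zbtb16b*, a gene of neural progenitors, by 4.65, at 65.4, 43.4, 14.2 and 6.81 CPM against 0.158, 0.441 and 0.991 CPM. In all 3 the order was CBD1, DMSO1, THC4 and CBD2 from high to low.

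Neurogenesis genes stood higher in 14 of 33 cases (39 listed, 0 lower), with a median of 1.2. *neurog1*, which starts neuron formation, stood at 23.8, 18.4, 26.7 and 28.1 CPM, against 1.58, 3.57 and 4.82 CPM (2.66), and *OLIG3* at 12.4, 13.1, 29.2 and 23.9 CPM, against 0.754, 2.64 and 4.96 CPM (2.71). For both of these genes of early progenitors, CBD2 and THC4 stood above CBD1 and DMSO1. *ELAVL3*, an RNA-binding protein of young neurons, had the reverse order, at 75.8, 43.5, 10.98 and 4.47 CPM, against 0.323, 0.866 and 1.102 CPM (4.05). *NEUROD4*, which acts downstream of neurogenins, stood at 15.3, 12.7, 1.52 and 0.638 CPM, against at most 0.191 CPM (2.97). *ISL2* (ENSDARG00000003971), of motor and sensory neurons, differed by 2.61 and *EBF2* by 2.46.

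Neural crest genes stood higher in 6 of 22 cases (28 listed, 0 lower), with a median of 0.99. Of 2 genes under the symbol *SOX9*, ENSDARG00000043923 stood at 66.9, 49.8, 13.9 and 6.22 CPM, against 0.323, 1.35 and 2.93 CPM (3.8), and ENSDARG00000003293 at 15.96, 11.5, 8.06 and 6.33 CPM, against 0, 4.71 and 6.06 CPM (1.45). The second differed by 0.97 without CBD3, where it was at 0. *SOX10*, which marks migrating crest, overlapped: it stood at 25.1, 15.8, 0.987 and 0.266 CPM, against 0.108, 0.215 and 0.472 CPM (2.64), and CBD2 lay inside the nanog-high range. *DLX5* differed by 2.2, *zeb2a* by 1.39 and *PAX3* (ENSDARG00000010192) by 1.48, the last with overlapping sets. Without CBD2, 11 of 22 were higher, beside 1722 of 18111 over all genes.

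Retinoic acid patterns the hindbrain and trunk, and with Wnt and Fgf it sets the axis along which Hox genes are switched on. Of genes of these 3 pathways, 11 of 42 stood higher and 1 lower (46 listed), with a median of 0.34. The retinoic acid degrading enzymes *CYP26C1* and *CYP26B1* stood at 36.9, 35.9, 23.5 and 8.24 and at 15.8, 10.8, 3.37 and 1.01 CPM in CBD1, DMSO1, THC4 and CBD2, against at most 1.76 and 0.283 CPM (3.91 and 3.35). *CRABP2* (ENSDARG00000073978), which carries retinoic acid in the cell, stood at 69.6, 54.5, 27.3 and 15.4 CPM, against 0.108, 2.05 and 4.15 CPM (4.08). The receptor *RARG* (ENSDARG00000034117) was nearly level over the nanog-low libraries, at 92.6, 74.8, 86.1 and 67.9 CPM, against 1.72, 20.3 and 29.1 CPM (2.36, and 1.9 without CBD3). *DHRS3* (ENSDARG00000044982), which turns retinal back to retinol, differed by 2.36, and the ligand *WNT11* by 3.52. Without CBD3, 7 of 42 were higher, against 11 with it.

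Hox genes stood higher almost throughout. Of 35 that passed (47 listed), 34 stood higher and 0 lower, with a median of 2.21, and their summed level was 551 to 726 CPM in nanog-low and 155 to 226 CPM in nanog-high libraries. The 1 exception was *hoxb1b*, among the first Hox genes switched on in the gastrula, at 95.9, 100.8, 188 and 219 CPM in CBD1, DMSO1, THC4 and CBD2, against 82.7, 108 and 150.2 CPM (0.36), so that its sets overlapped. Its paralog *hoxb1a*, of a hindbrain segment, stood at 29.2, 24.3, 20.6 and 18.8 CPM, against 2.69, 3.92 and 4.65 CPM (2.51).

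The higher Hox genes came from paralog groups 1 to 11 and 13. Middle genes such as *HOXB7*, at 43.2, 31.6, 36.6 and 27.1 CPM against 5.87, 8.03 and 9.26 CPM (2.07), were nearly level over the nanog-low libraries. The genes with the largest differences were *hoxa9b*, at 27.03, 18.3, 9.87 and 5.58 CPM against 0, 0.108 and 0.283 CPM (4.41), and *HOXD9*, at 26.4, 15.9, 8.56 and 3.99 CPM against 0, 0.189 and 0.264 CPM (4.2). *HOXA3* (3.77), *HOXD4* (3.48), 1 copy of *HOXC6* (ENSDARG00000101954, 3.32) and *HOXD3* (3.25) followed. Of the last groups, *hoxa10b* stood at 10.4, 6.04, 1.56 and 0.479 CPM, against at most 0.0478 CPM (2.76), with CBD1 and DMSO1 well above THC4 and CBD2. The median difference was 2.51 in group 1, 2.06 in group 5, 1.80 in group 8, 2.84 in group 9 and 2.54 in group 10, with no steady trend along the groups. Without CBD3 or without CBD2, 34 of 35 again stood higher. With 2 CPM added in place of 0.5 CPM, 28 of 35 did, and with the shallow DMSO library 4 included, 4 of 33 did.

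Notochord and floor plate genes stood higher in 9 of 27 cases and lower in 1 (31 listed), with a median of 0.96. The lower one, named after its value was seen, was the matrix gene *epyc* (−1.39). The matrix gene *emilin3a* stood at 256, 182, 70.8 and 40.8 CPM in CBD1, DMSO1, THC4 and CBD2, against 4.09, 6.71 and 13.3 CPM (3.82). Of 2 genes under the symbol *COL2A1*, a collagen of the notochord sheath, ENSDARG00000011407 stood at 129.7, 76.1, 22.5 and 12.02 CPM, against 3.45, 4.81 and 6.89 CPM (2.98). The other, ENSDARG00000069093, stood at 301, 117, 11.3 and 5.904 CPM, against 0.636, 1.48 and 6.72 CPM (4.1), and its sets overlapped through CBD2. *col9a1b* differed by 3.41, *MDK* (ENSDARG00000036036) by 2.8 and *col8a1a* by 2.81 with overlap. Outside the lists, the basement membrane collagen *col15a1b* (4.16) and the elastic fibre gene *EFEMP2* (ENSDARG00000094324, 4.29) were among the 12 highest differences of genes chosen for no overlap. Without CBD2, 14 of 27 notochord and floor plate genes were higher, beside 1722 of 18111 over all genes.

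Heart, lateral plate and kidney genes stood higher in 7 of 22 cases (32 listed, 0 lower), with a median of 0.78. *HAND2*, needed for heart muscle, stood at 26.3, 16.3, 10.3 and 6.595 CPM, against 0.211, 0.431 and 0.755 CPM (3.91), and the cardiac homeobox gene *nkx2.7* at 15.2, 11.2, 10.98 and 9.63 CPM, against 0.975, 1.38 and 2.15 CPM (2.7). Both were present in all 4 nanog-low libraries, *nkx2.7* with little spread. *PAX8*, of kidney and ear precursors, stood at 36.01, 34, 55.5 and 50.2 CPM, against 8.98, 11.4 and 17.2 CPM (1.76), with THC4 and CBD2 above CBD1 and DMSO1. *ISL1* differed by 2.32, and 1 copy of *TTN* (ENSDARG00000028213), the giant sarcomere spring, by 1.73 with overlapping sets.

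Blood and endothelial genes, the tissue of the fli1 transgene, stood higher in 4 of 20 cases (31 listed, 0 lower), with 10 positive and 10 negative differences and a median of 0.00 (−0.02 with DESeq2 size factors); 11 did not pass the filter. *FLI1* itself stood at 32, 12.5, 2.34 and 0.691 CPM in CBD1, DMSO1, THC4 and CBD2, against 0, 0.0489 and 0.441 CPM (3.31). *etsrp*, which starts vessel and myeloid fates in zebrafish, stood at 24.9, 17.7, 2.06 and 2.87 CPM, against 0.165, 0.287 and 0.862 CPM (3.14), and *LMO2*, a partner of the blood factor Tal1, at 29.9, 16.5, 0.823 and 0.585 CPM, against 0.0551, 0.317 and 0.472 CPM (2.81). All 3 were high in CBD1 and DMSO1, and THC4 and CBD2 lay much nearer to the nanog-high range. The vessel receptors *KDR* (1.07) and *kdrl* (1.41) overlapped, and *sox18* differed by 1.47.

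Housekeeping lists gave 0 counted genes: 0 of 83 cytosolic ribosomal protein genes and 0 of 13 mitochondrially encoded genes, with medians of 0.14 and 0.14. Their sums overlapped only through CBD3 for the ribosomal genes, and for the mitochondrial ones the nanog-low range of 13651 to 17719 CPM overlapped the nanog-high range with and without CBD3 (13156 to 17698 CPM without it).

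The 4 nanog-low libraries were not alike. Of the 1111 higher genes, 823 stood higher in both CBD1 and DMSO1 than in both THC4 and CBD2, and 63 stood lower, whereas over all genes these numbers were 6354 and 4972. CBD1 was the highest of the 4 in 887 of the 1111 and CBD2 the lowest in 832. The ranks of single libraries were not counted over all genes, so nothing is read from them about the counted genes. Between the same pairs of libraries the 529 lower genes showed no such lean, with 144 above and 134 below.

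Some genes were found almost only in CBD1 and DMSO1, which carry the same replicate number. Whether these libraries share an origin was not tested. A count of at least 20 in both, and of at most 3 in each of the 9 other libraries, was met by 43 genes, and no other pair among the 55 pairs of libraries had any such gene. The limits of this count and the genes that follow were chosen after values were seen. *MYOG*, which drives muscle cells to fuse and differentiate, had 173 counts in CBD1 and 71 in DMSO1, and at most 1 count in each of the 9 others. Also among the 43 were *twist1b* of the cranial crest (141 counts in CBD1 and 67 in DMSO1) and the acetylcholine receptor subunits *CHRND* (83 and 22) and *CHRNG* (133 and 26) of muscle. The muscle and spinal gene *lbx1b* (138 and 51), *HOXD12* (127 and 37) and the vessel gene *EGFL7* (94 and 51) were among them too. CBD1 exceeded DMSO1 in TMM-scaled level for 41 of the 43, with a median ratio of 1.95. None of the 43 passed the count filter, so they are not among the 1111.

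Of the blood and endothelium list, 3 genes chosen after their values were seen are given by their counts. *TAL1*, which founds the blood lineage, had 639, 297, 8 and 0 counts in CBD1, DMSO1, THC4 and CBD2, and *gata1a*, which drives red cells, had 211, 97, 1 and 0. *gfi1aa*, which acts in early red cell precursors, had 174, 109, 6 and 5 counts. In the nanog-high libraries these genes had at most 4 counts each. *EN2* (ENSDARG00000038868), of the midbrain and hindbrain border, had 384, 199, 4 and 0 counts in the same order, the eye field gene *rx2* had 159, 131, 1 and 0 and *tnnt2c* of the sarcomere had 483, 101, 4 and 2.

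Of the 529 lower genes, 4 stood at least 4-fold higher in both CBD1 and DMSO1 than in both THC4 and CBD2, at a level of at least 1 CPM. The reverse order was not counted, and these limits were not applied to all genes. The number 4 is therefore not read as a trait of CBD1 and DMSO1. The linker histone *h1m*, deposited by the mother, stood at 60.1, 51, 5.14 and 6.33 CPM in CBD1, DMSO1, THC4 and CBD2, against 78.4, 123 and 642 CPM in the nanog-high set (−2.98). *h2af1al*, a histone H2A gene, stood at 41.1, 38.96, 0.823 and 1.49 CPM, against 59.16, 89.8 and 397 CPM (−3.62). *CCNA1*, given above, and *pabpn1l*, a poly(A)-binding protein gene of oocytes, at 2.57, 2.44, 0.329 and 0.160 CPM against 3.95, 7.31 and 10.8 CPM, were the other two. *buc* and *WEE2* did not reach that 4-fold limit. For *h1m* the highest nanog-high level was that of CBD3, and the difference without CBD3 was −2.63.

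**Figure D4:**
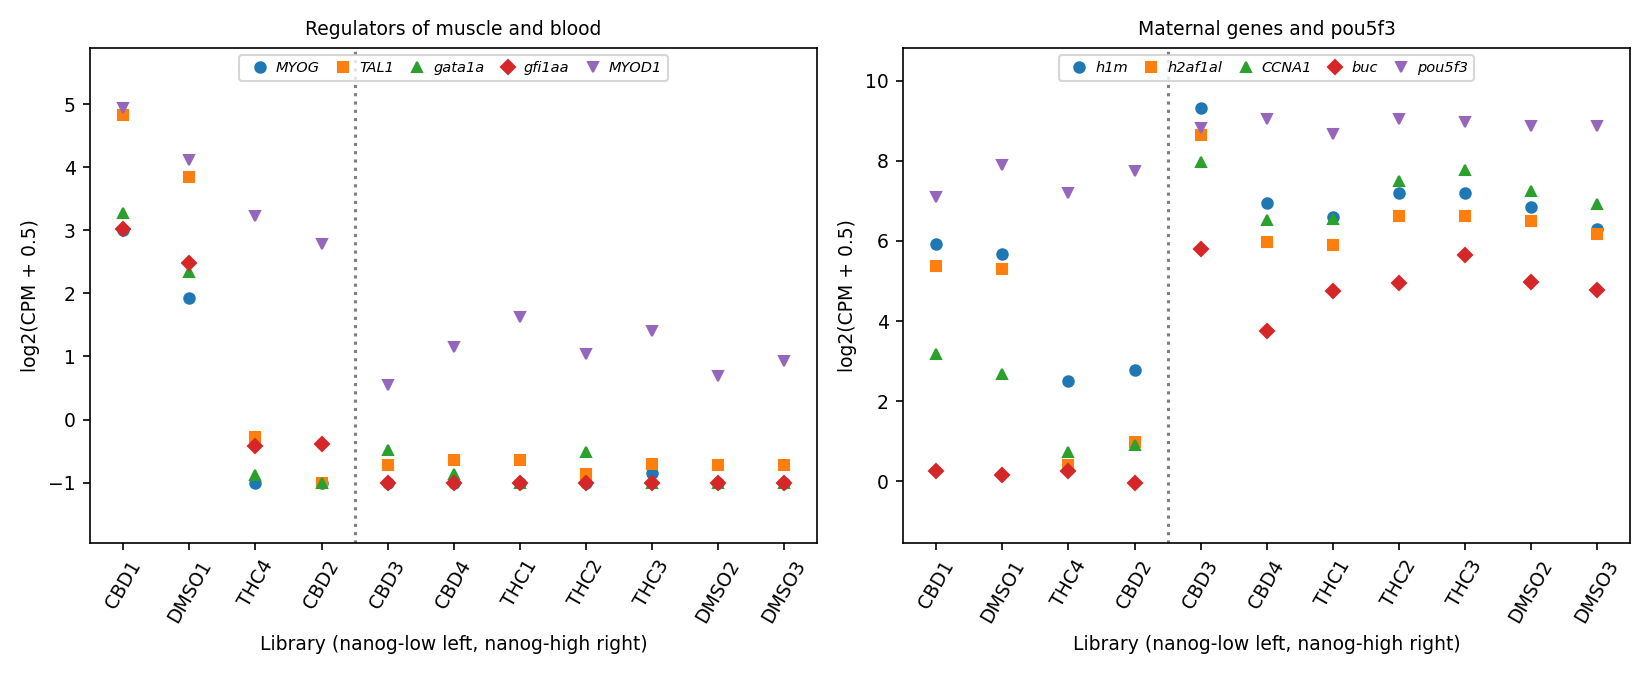
Levels of regulators of muscle and blood (left) and of maternal genes with *pou5f3* (right) in each library, as log2(CPM + 0.5); the 4 nanog-low libraries are left of the dotted line and the 7 nanog-high libraries right of it. *MYOG*, *TAL1*, *gata1a* and *gfi1aa* are far higher in CBD1 and DMSO1 than in the 9 other libraries, while *h1m* and *h2af1al* are higher in CBD1 and DMSO1 than in THC4 and CBD2.

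The 7 nanog-high libraries also differed. THC1 was the highest of the 7 in 479 of the 1111 higher genes and the lowest in 179 of the 529 lower genes. CBD3 was the lowest in 645 of the 1111 and the highest in 305 of the 529. These ranks, too, were not counted over all genes, so they are not read as a trait of the counted genes. Without CBD3 the numbers of genes counted were 1135 higher and 576 lower, against 1111 and 529 with it.

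The labelled treatment was not used to sort the libraries, so it was tested over the same 11 libraries. With edgeR's quasi-likelihood test, 0 of 18186 genes (0.0%) passed an adjusted p of 0.05 in CBD against DMSO, THC against DMSO or CBD against THC. At an unadjusted edgeR p under 0.05 there were 784, 47 and 1639 of the 18186 genes. With no difference at all, a share of about 0.05 of the tests falls under that limit. The counts for CBD and for THC against DMSO lie below that share, and the count for CBD against THC lies above it. DESeq2 called 0, 0 and 19 genes, and limma voom, with library weights, called 393 (2.16%), 0 and 1884 (10.4%) of the 18186. Of 634 tested genes on the lists, 0 were called by edgeR, and their smallest adjusted p values were 0.786, 1 and 0.534. These comparisons share their libraries, and every treatment held both nanog-low and nanog-high libraries, in unequal shares. Voom weighted nanog-low CBD1 and CBD2 at 0.298 and 2.15, and nanog-high CBD3 and CBD4 at 0.0846 and 0.864. It weighted nanog-low DMSO1 and THC4 at 0.434 and 0.493, against 1.54 to 3.33 for the nanog-high DMSO and THC libraries. The part of the *nanog* sets in the voom calls was not tested.

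The genes with the smallest p are given by their means. *STK38*, a kinase of the Hippo family, averaged 24.4 ± 2.37 CPM in CBD and 46.4 ± 10.6 CPM in DMSO (SD, n = 4 and 3; log2 fold change −0.93, SE 0.208, edgeR adjusted p = 0.786). In THC it averaged 47.0 ± 7.22 CPM (CBD against THC −0.95, SE 0.195, edgeR adjusted p = 0.534). *SNX13*, of endosome sorting, averaged 3.23 ± 0.625 CPM in CBD and 10.7 ± 4.12 CPM in THC (SD, n = 4 each; −1.72, SE 0.341, edgeR adjusted p = 0.534), and *nova1*, a splicing factor of neurons, 10.7 ± 5.13 CPM in CBD and 38.5 ± 8.47 CPM in THC (−1.84, SE 0.387, the same adjusted p). The kinase gene *pak6b* averaged 0.114 ± 0.0860 CPM in THC and 0.800 ± 0.382 CPM in DMSO (SD, n = 4 and 3; −2.72, SE 0.761, edgeR adjusted p = 1). The THC mean of *pak6b* lay under the floor of 3 counts. None of these differences passed the test, which does not show that the treatments act alike. Without CBD1, edgeR called 16 genes in CBD against DMSO and 33 in CBD against THC, all lower in CBD, so those 2 counts of 0 depend on 1 library.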

How the data were processed

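Whole-embryo RNA was purified on RNeasy columns with removal of genomic DNA, made into TruSeq libraries and read in pairs on a HiSeq machine, per the labels' protocols. The authors deposited unnormalized read counts, with 35117 Ensembl gene identifiers in each library's file. Per the submitters' processing notes, STAR, HTSeq and edgeR were used with the build GRCz11, with versions not given in the sources used here. The deposited count files are named for reverse-strand counting in union mode, and counts of near-identical copies remain uncertain. Rows naming no gene numbered 0. A table of gene names gave symbols, often in the human style, for 27000 identifiers, of which 4682 share theirs with another, and 734 of 783 written list symbols were matched.

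Low genes were dropped by filterByExpr (count 10, total 15), libraries scaled by TMM and tested for treatment with edgeR 4.0.16 in R 4.3.3 (quasi-likelihood, Benjamini-Hochberg adjustment, threshold 0.05, 1 fit over 11 libraries). Alternatives used DESeq2 1.42.0 and limma 3.58.1. Differences between the *nanog* sets were computed in Python 3.11.15 with 0.5 CPM added and no test. The members and the 21 lists were chosen with earlier results of these data known. Named genes were *MYOD1*, *he1.1*, up to 6 members per list by absolute difference (a median of at least 1 CPM in either set), the 12 largest positive and negative differences over genes with a symbol and no overlap (median of at least 5 CPM), and the 3 smallest p per treatment comparison. *hoxb1a*, *hoxb1b*, *HOXB7*, *hoxa10b*, *pvalb2*, *myhz1.1*, *actc1b*, *tpma* and the genes given by counts fall outside this rule. Some genes that the rule or a count would name are not reported here. The code was tested on simulated counts. Floors cover counting error only.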

Additional observations from a re-analysis of the deposited data

Results flagged for a closer look

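In groups of 4 or 7 libraries, a library far from the others was looked for in 316 groups of values and found in 56, where chance gives about 1 in 20. CBD3 accounts for 48 of them. Among nanog-high libraries it was lowest for genes with a count (20212) and highest for the mitochondrial share (2.78%). The CPM values that follow are TMM-scaled, and the scaling factor of CBD3 was 0.607, against 1.002 or more in the others. This factor raises every CBD3 level relative to CPM by total counts. Levels of CBD3 given as above the others therefore need not hold by total counts. Its list sums, in CPM, were far above the other 6 for cytosolic ribosomal proteins (304041), mitochondrially encoded genes (45830), epidermis and keratin (36914), yolk and plasma proteins (32081), cell cycle (13021), maternal factors (4469), neurogenesis (974) and hatching gland genes (952), and below them for notochord (1269) and segmentation genes (1123).

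Single genes stood far above the other nanog-high libraries in CBD3, again in CPM: *MT-CO1* 20728, *RPLP0* 6969, *RPL7* 4358, *RPL19* 3404, *RPL7L1* 856, *h1m* 642, *XBP1* 641, *RPL22L1* 528, *nnr* 511, *h2af1al* 397, *FABP2* 312, *CCNE1* 253, *sox32* 234, *rps11l* 201, *apoa2* 125, *admp* 117, *MCM6* 117, *zp3b* 77.9, *MEOX1* 19.7, *ctslb* 16.6, *icn2* 12.6, *prss59.1* 12.1, *TCF15* 8.18, *mespbb* 4.31 and *AGR2* 1.83. Others stood far below in CBD3: *apobb.1* 137, *mt-nd4l* 9.26, *MYF5* 7.97, *zeb2a* 7.22, *TCF12* 3.23, *RARG* 1.72, *KDR* 1.29, *kdrl* 0.108, and *col8a1a*, *col15a1b* and *SOX9* (ENSDARG00000003293) at 0.

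The remaining nanog-high cases were *BMP2* in THC1 (0.378 CPM) and, in THC3, *col1a1a* (5.56 CPM) and *GFAP* (0.606 CPM), all above the others. Among nanog-low libraries CBD1 stood above the rest for the hatching gland sum (854 CPM) and *RPL22L1* (156 CPM), CBD2 below them for the sum of larval organ genes (67.1 CPM), and THC4 above for *zgc:173742* (4.65 CPM) and below for *XBP1* (292 CPM).

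The shallow DMSO library 4 of 10 hpf, used only in an alternative that adds it, held larval fast muscle genes above the other DMSO libraries: with CPM by total counts, *pvalb1* stood at 270.0 CPM (34 counts), *myhz1.1* at 167 CPM and *pvalb2* at 143 CPM (18 counts). For *pvalb1* this is 2.64% of its 96 hpf median.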

How the results depend on the processing

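The number of genes higher in nanog-low libraries was 1111, and 667 with 2 CPM added, 336 with a log2 difference of at least 2, 211 with the shallow DMSO library 4 included, and 938 to 1722 when a library was left out (1722 without CBD2). The number lower was 529, and 264 with 2 CPM added, 76 at a log2 difference of at least 2, and 527 to 648 when a library was left out. Without CBD1 and DMSO1 together they were 882 and 674. The shallow DMSO library 4, where included, joined the nanog-low set through 1 *nanog* count (7.94 CPM). A gene with no count in it could not be counted as higher, and 3 counts there came to 23.8 CPM of total counts.

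For treatments, calls were 19 by DESeq2 and 1884 by voom in CBD against THC, and 393 by voom in CBD against DMSO. Leaving out a library gave 0 to 33 calls in CBD against THC, 0 to 16 in CBD against DMSO and 0 to 0 in THC against DMSO. The quality weights of voom were lowest for CBD3 (0.0846) and CBD1 (0.298).

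Of 2522 values of 134 named genes under alternatives, 2348 kept their sign and moved by less than the spread between libraries, 171 by more, and 3 changed sign: EFNB2 (ENSDARG00000020164), at −0.0493 with the shallow library, rps11l, at 0.253 without CBD1 and DMSO1 together, and RPL7L1, at 0.0131 without CBD3 (−0.418 to 0.0131 when a library was left out). Of 399 medians of lists, 357 kept their sign and moved by less than that spread, 33 by more and 9 changed sign. The median of the cell cycle genes was 0.0379 with CPM by total counts only, and that of the larval and differentiated organ genes was −0.351 with at least 1 CPM in 4 libraries, against 0.339. The median of the blood and endothelium genes, close to 0, changed sign in the other 7: it was −0.023 with DESeq2 size factors, −0.102 with at least 1 CPM in 4 libraries, −0.108 with the shallow library, −0.115 without CBD2, −0.0715 without THC4, −0.00166 without THC2 and −0.0612 without THC3, within −0.115 to 0.612 when a library was left out. The cause of these moves was not tested.

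Replicate numbers gave no uniform pairing, as 5 of 10 same-number pairs correlated above 0.1. The correlations ran from −0.573 (CBD4 and THC4) to 0.767 (CBD1 and DMSO1). Of 11 libraries, 4 were closest to their own number in another treatment. The difference between the *nanog* sets was left in these correlations, so they cannot exclude that some numbers pair libraries. With the replicate block, edgeR called 0 genes in each of the 3 comparisons.

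Depth limits scarce genes: 3 counts came to 23.8 CPM of total counts in DMSO library 4.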
